A study of Homo sapiens with 4 samples.

Results

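The miRNA hsa-miR-122 and the other arm of its hairpin, hsa-miR-122*, were followed through 4 small RNA libraries. These 2 miRNAs, of 1733 listed for each library, were chosen by name because earlier work on these data had shown large differences of hsa-miR-122 between libraries. Their levels, ranks and ratios are therefore given as a description, with no test. The libraries form 2 pairs. One pair was Hep3B, a human hepatoma line (HCC cells), with Hep3B-C, the stem-like cells (hepatic cancer stem cells, HCSCs) that the study cultured from it. The other was the hepatoma line Huh7 with its own HCSCs, Huh7-C. Total RNA was used, and the labels give no treatment, time or genetic change for any line. The culture conditions of the HCSCs are not given in the sources used here, so culture and stem-like state cannot be told apart. Each of the 4 conditions had 1 library, so no difference has a replicate check. All intervals are 95% intervals that cover counting error only. Reads copied by PCR are not independent molecules, so the intervals may be too narrow even for that error.

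A miRNA is cut from a hairpin precursor by Drosha and Dicer. One arm, the guide, is loaded into an Argonaute protein and pairs with target mRNAs mainly through its seed, bases 2 to 8, while the other arm, the passenger (marked with an asterisk in miRBase release 17), is mostly degraded. MiR-122 is the most abundant miRNA of normal hepatocytes, where it takes part in cholesterol and fatty acid metabolism, is kept on by hepatocyte nuclear factors, and is needed by hepatitis C virus for its replication. Huh7 is known as a hepatoma line that keeps miR-122, and Hep3B as one in which it is low.

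The sequences of both arms are shown because the arms are the measured items, with the seed of each in capitals. RefSeq (GRCh38.p14) places them on the plus strand at chr18:58451088-58451109 and chr18:58451124-58451145, and names them by the arm of the hairpin they come from, so that hsa-miR-122 is the 5p arm and hsa-miR-122* the 3p arm.
hsa-miR-122-5p: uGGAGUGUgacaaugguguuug
hsa-miR-122-3p: aACGCCAUuaucacacuaaaua
The hairpin they are cut from, MIR122, has 85 bases at chr18:58451074-58451158. It is printed with both mature arms in capitals, the guide first.
MIR122 hairpin: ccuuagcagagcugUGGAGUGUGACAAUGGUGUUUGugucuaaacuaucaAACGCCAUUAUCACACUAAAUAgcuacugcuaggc
In GENCODE release 29 the hairpin lies in exon 2 (chr18:58449309-58453766) of the long non-coding RNA gene MIR122HG, which spans chr18:58446275-58453766 on the same strand. Of 2370 mature human miRNA names in the RefSeq table, 0 others share the seed of either arm, so neither arm shares its seed with another miRNA of that table.

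A second hairpin, MIR3591, is annotated on the opposite strand of the same stretch. Its arms are shown because 21 bases of hsa-miR-3591-3p are the exact reverse complement of hsa-miR-122, and 20 bases of hsa-miR-3591-5p that of hsa-miR-122* (seeds in capitals).
hsa-miR-3591-5p: uUUAGUGUgauaauggcguuuga
hsa-miR-3591-3p: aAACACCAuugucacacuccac
Whether reads were assigned by strand is not given in the sources used here, so reads of an arm and of its antisense partner may not be told apart.

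The miRNA counts of a library summed to between 1739278 (Hep3B) and 5741567 (Huh7), and 664 to 773 miRNAs had at least 1 count. These counts were 10.4% of the total reads that the study states for Hep3B, 35.2% for Hep3B-C, 54.1% for Huh7 and 37.8% for Huh7-C. Levels are given as TPM (counts per 1000000 total reads) and as a share of miRNA counts, and the 2 scales differ by these unequal miRNA fractions. Whether the stated total reads were counted before or after filtering is not given in the sources used here, so TPM, the ratios of TPM and these fractions hold only as far as the totals are alike in that respect. A count of 0 was read as allowing up to 3 counts, which corresponds to 0.179 TPM for the Hep3B library and to 0.194 to 0.282 TPM for the others.

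Hsa-miR-122 was low in Hep3B and among the 9 most abundant miRNAs of the other 3 libraries. It had 397 counts in Hep3B, or 23.7 TPM (exact Poisson interval 21.4 to 26.1). In Hep3B-C it had 149892 counts, or 9708 TPM (9659 to 9757). Huh7 had 489443 counts, or 46077 TPM (45948 to 46206). Huh7-C had 144814 counts, or 13515 TPM (13446 to 13585). The order of the levels was thus Hep3B, Hep3B-C, Huh7-C and Huh7. No 2 of these counting intervals overlap, but the spread between cultures is unknown, so neighbours in this order could not be compared beyond it.

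**Figure D1:**
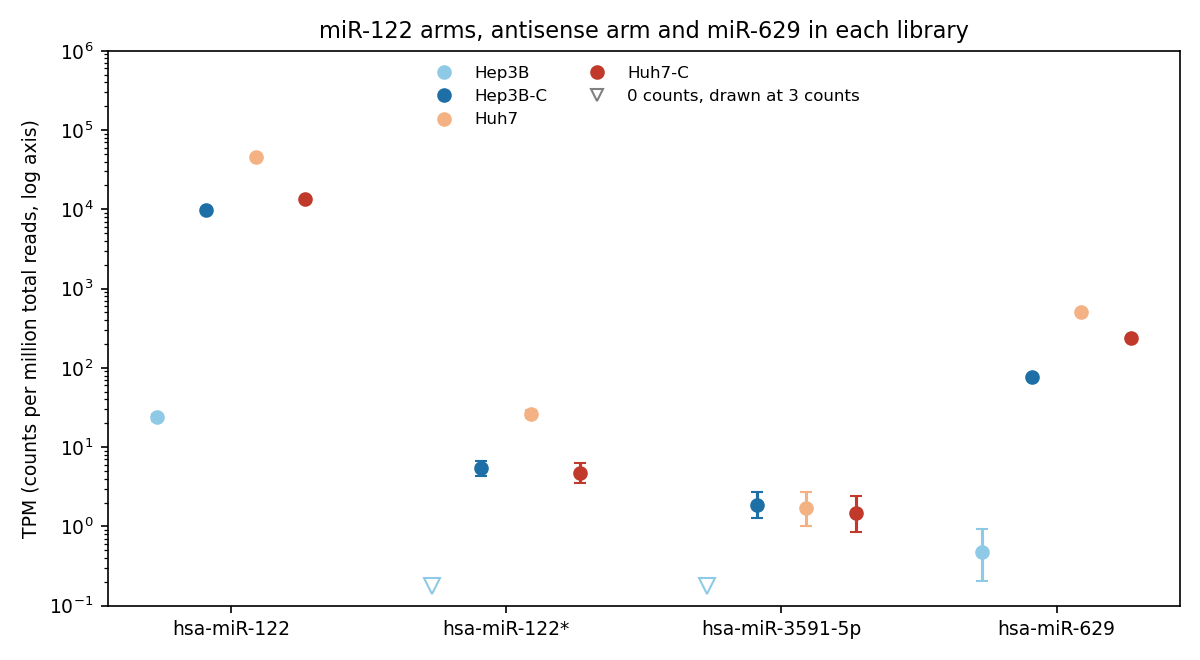
TPM (log axis) of hsa-miR-122, hsa-miR-122*, hsa-miR-3591-5p and hsa-miR-629 in the 4 libraries, with 95% exact Poisson intervals as bars and open triangles at the level of 3 counts where a library had 0. Hsa-miR-122 stood at 23.7 TPM in Hep3B and at 9708 to 46077 TPM in the other libraries, and hsa-miR-629 had the same order of lowest and highest library.

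As a share of miRNA counts, hsa-miR-122 made up 0.0228% of Hep3B (Clopper-Pearson interval 0.0206% to 0.0252%) and 2.76% of Hep3B-C (2.75% to 2.77%). It made up 8.52% of Huh7 (8.50% to 8.55%) and 3.58% of Huh7-C (3.56% to 3.60%). Its rank was 109 in Hep3B, between hsa-miR-15b (403 counts) and hsa-miR-125b (381 counts). It ranked 9 in Hep3B-C, next below hsa-miR-146a (185624 counts). In Huh7 it ranked 3, below hsa-miR-21 and hsa-miR-192, and in Huh7-C it ranked 5, next below hsa-miR-148a (306533 counts). Rank 1 was held by hsa-miR-21, an oncogenic miRNA of many tumours, except in Hep3B-C, where hsa-miR-378 led. Both HCSC libraries thus had hsa-miR-122 among their leading miRNAs, although only one of the parent libraries did.

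**Figure D2:**
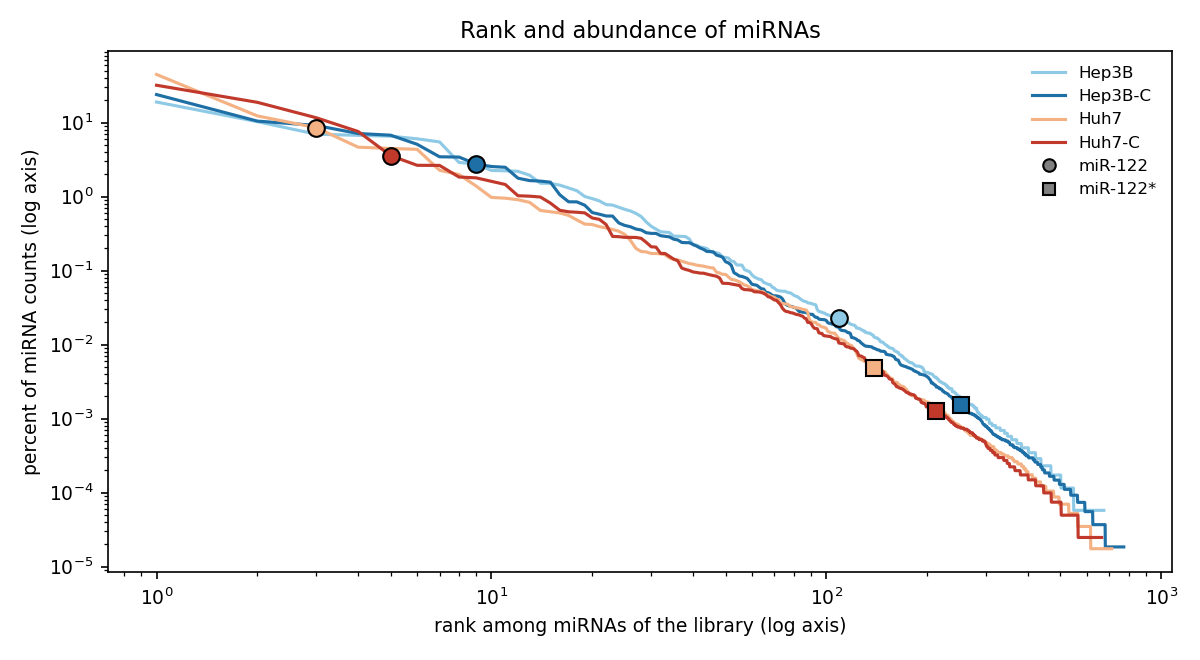
Share of miRNA counts (percent, log axis) against rank (log axis) for all miRNAs with at least 1 count, with 1 line per library, circles for hsa-miR-122 and squares for hsa-miR-122*. Hsa-miR-122 was at rank 109 in Hep3B and at ranks 3 to 9 in the other libraries, and hsa-miR-122* had no count in Hep3B and ranks of 139 to 252 elsewhere.

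Ratios to single abundant miRNAs of the same library need no library size. Hsa-miR-122 had 2.22 counts per 1000 counts of hsa-miR-192 in Hep3B (interval 2.00 to 2.45) and 388 in Hep3B-C (386 to 390). Against the same miRNA, which is also rich in liver, it had 692 in Huh7 (690 to 695) and 308 in Huh7-C (306 to 310). Relative to hsa-let-7a, which most differentiated cells express, it had 3.78 per 1000 counts in Hep3B against 543 in Hep3B-C, and 8962 in Huh7 against 2226 in Huh7-C. Relative to hsa-miR-148a, another abundant liver miRNA, the values were 4.17 and 409 for the Hep3B pair and 1908 and 472 for the Huh7 pair. Relative to hsa-miR-21 the values were 1.20, 264, 191 and 112 per 1000 in Hep3B, Hep3B-C, Huh7 and Huh7-C. With hsa-miR-21 as the base, the highest library was therefore Hep3B-C and not Huh7, while with hsa-miR-192, hsa-miR-148a and hsa-let-7a it was Huh7. Hep3B was the lowest with each of these bases. Between the HCSC libraries the order depended on the base. Hep3B-C was above Huh7-C with hsa-miR-192 and hsa-miR-21, and below it with hsa-miR-148a and hsa-let-7a.

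Between HCSCs and the HCC cells they came from, hsa-miR-122 differed in opposite directions in the 2 lines. Its TPM was 410-fold higher in Hep3B-C than in Hep3B (exact binomial interval 372 to 454), a log2 ratio of 8.68 (8.54 to 8.83). Among the 475 miRNAs that reached 10 counts in one or both libraries of this pair, 66.5% were at least 2-fold higher in Hep3B-C by TPM and 5.05% at least 2-fold lower. With total miRNA counts as the library size these shares were 19.4% and 25.1%, and the log2 ratio of hsa-miR-122 was 6.92. Since the median log2 ratio of the 475 miRNAs was 1.42 by TPM, hsa-miR-122 stood 7.26 above it on the log2 scale, and with 0.5 counts added to every count it had the highest ratio of the 475.

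In the Huh7 pair hsa-miR-122 was 3.41-fold lower in Huh7-C (interval 3.39 to 3.43), a log2 ratio of -1.77 (-1.78 to -1.76). Here 37.4% of 431 miRNAs were at least 2-fold lower and 7.42% at least 2-fold higher. By total miRNA counts these shares were 24.4% and 15.3%, and the log2 ratio of hsa-miR-122 was -1.25. The median log2 ratio of all miRNAs by TPM was -0.66, so hsa-miR-122 lay at -1.10 relative to it, and it was in place 84 counted from the lowest ratio. A difference of this size was thus found for many miRNAs of this pair, whereas the ratio in the Hep3B pair was the highest among the miRNAs compared. Over the 4 libraries, 547 miRNAs reached 10 counts in at least 1, and of these 17.6% were at least 2-fold higher in Hep3B-C and at least 2-fold lower in Huh7-C by TPM, and 5.85% by total miRNA counts. Both arms of miR-122 belong to them on either scale.

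**Figure D3:**
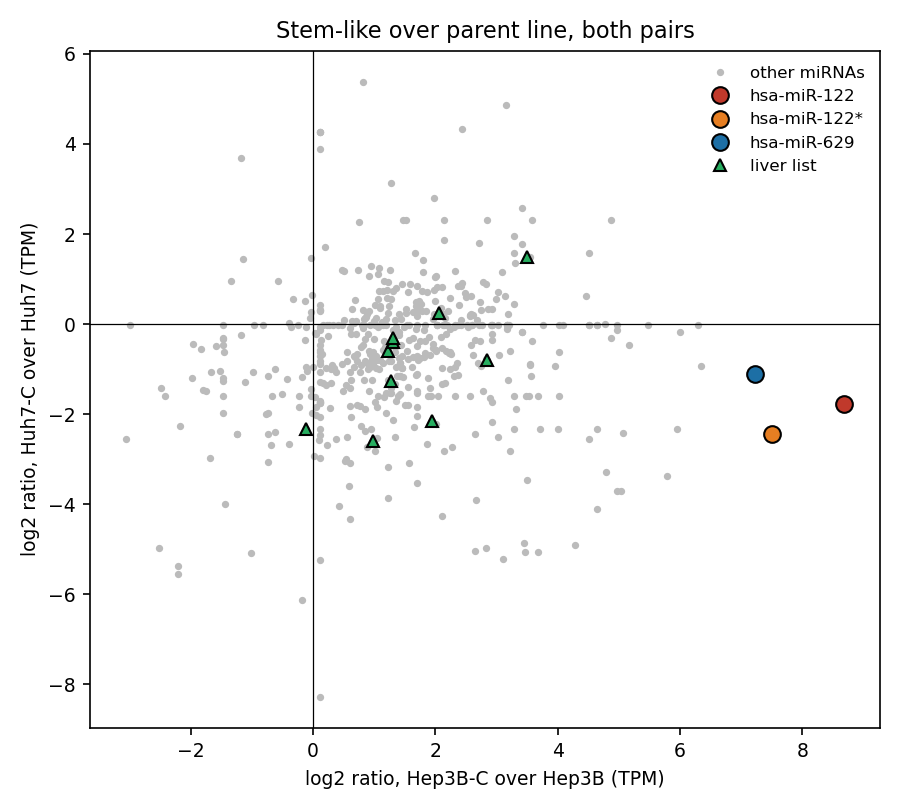
Log2 ratio of TPM in Huh7-C over Huh7 against that in Hep3B-C over Hep3B for 547 miRNAs with at least 10 counts in any library, with 0.5 counts added to each count. Hsa-miR-122 (8.68 and -1.77) lies farthest to the right, next to hsa-miR-122*, whose place on the horizontal axis depends on the added count because it had 0 counts in Hep3B, and hsa-miR-629. Green triangles are 10 other liver miRNAs.

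The same counts can be read between lines. Among the HCC cells, hsa-miR-122 was 1948-fold higher in Huh7 than in Hep3B by TPM (interval 1765 to 2155), a log2 ratio of 10.93, with 57.8% of 476 miRNAs at least 2-fold higher in Huh7 and 18.3% at least 2-fold lower. By total miRNA counts the difference was 373-fold, with 24.8% higher and 47.5% lower. Among the HCSCs it was 1.39-fold higher in Huh7-C than in Hep3B-C (interval 1.38 to 1.40), a log2 ratio of 0.48, where 22.7% of 502 miRNAs were at least 2-fold higher and 46.8% at least 2-fold lower. By total miRNA counts it was 1.30-fold higher, with 21.9% of miRNAs higher and 49.0% lower. The distance between the lines in this miRNA was therefore far smaller in the HCSC libraries than in those of the parents, a difference that was not tested against variation between cultures. These 4 comparisons share their libraries and are not independent.

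The difference of hsa-miR-122 was set beside that of the summed TPM of all miRNAs. This sum was 248051 higher in Hep3B-C than in Hep3B, and the difference of hsa-miR-122 equalled 3.90% of it. In Huh7-C the sum was lower than in Huh7, and the difference of hsa-miR-122 equalled 20.0% of that. Both sums are net of miRNAs that moved either way, so these are not parts of a whole. Hsa-miR-21 had 241620 TPM in Huh7 and 120625 in Huh7-C, and hsa-miR-378 25148 and 70906. In the Hep3B pair hsa-miR-378 had 7216 TPM in Hep3B and 84106 in Hep3B-C, a larger difference than that of hsa-miR-122.

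The passenger arm hsa-miR-122* followed the guide at a much lower level. Hep3B had 0 counts of it, which allows up to 0.179 TPM. Hep3B-C had 83 counts, or 5.38 TPM (exact Poisson interval 4.28 to 6.66). Huh7 had 279 counts, or 26.3 TPM (23.3 to 29.5), and Huh7-C had 51 counts, or 4.76 TPM (3.54 to 6.26). Of miRNA counts these were 15.3, 48.6 and 12.6 per 1000000 in the 3 libraries that had any. Huh7 was again the highest, Hep3B the lowest, and the intervals of Hep3B-C and Huh7-C overlapped. Against the floor of 3 counts in Hep3B, hsa-miR-122* was at least 30.1-fold higher in Hep3B-C and at least 147-fold higher in Huh7. These bounds take the counts of Hep3B-C and Huh7 as they are, without their counting error. In the Huh7 pair it was 5.52-fold lower in Huh7-C (interval 4.08 to 7.59), a log2 ratio of -2.46 (-2.92 to -2.03).

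The guide outnumbered the passenger by more than 1000 to 1 in the 3 libraries where both were counted, with the widest gap in Huh7-C. There were 1806 counts of hsa-miR-122 for each of hsa-miR-122* in Hep3B-C (interval 1457 to 2267), 1754 in Huh7 (1560 to 1980) and 2839 in Huh7-C (2159 to 3814). As a share of both arms, hsa-miR-122* was 0.0553% (0.0441% to 0.0686%), 0.0570% (0.0505% to 0.0641%) and 0.0352% (0.0262% to 0.0463%) in the same order. The intervals of Hep3B-C and Huh7 largely coincide. That of Huh7-C lies below that of Huh7 but overlaps that of Hep3B-C. A lower share of the less abundant arm in Huh7-C than in Huh7 was also seen for other abundant hairpins. It was 0.0164% in Huh7 and 0.00554% in Huh7-C for hsa-miR-192, 2.66% and 0.662% for hsa-miR-148a, and 0.117% and 0.0840% for hsa-miR-21. For hsa-let-7a it was not lower (0.0311% and 0.0353%). In Hep3B the share was 0 of 397 counts, which allows up to 0.756% at 3 counts (Clopper-Pearson upper limit 0.925%). At the share pooled over all libraries, 397 counts of the guide would come with 0.209 counts of the passenger, so a change of the ratio in Hep3B was not detectable at this depth.

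Among hairpins with both arms in the files and at least 100 counts, the minor arm had a median share of 1.75% over 128 hairpins in Hep3B-C, 2.63% over 105 in Huh7 and 1.21% over 104 in Huh7-C. With a minimum of 1000 counts these medians were 0.994%, 0.943% and 0.662%. The share of the miR-122 hairpin was below each of them. Where a minor arm at 0 was read as up to 3 counts, a lower share than that of the miR-122 hairpin was found for 12 hairpins of Hep3B-C (9.38%), 5 of Huh7 (4.76%) and 6 of Huh7-C (5.77%). A further 18, 11 and 16 hairpins had no count of the minor arm at a depth that cannot place them above or below it. With these hairpins ranked at 0, the lower ones came to 23.4%, 15.2% and 21.2%. A low share was not particular to miR-122 among the abundant miRNAs used as bases above. In Hep3B-C hsa-miR-192 (0.00492%) and hsa-let-7a (0.0199%) lay below it, and hsa-miR-21 (0.0773%) and hsa-miR-148a (0.669%) above it. In Huh7 hsa-miR-192 (0.0164%) and hsa-let-7a (0.0311%) were again below it, and hsa-miR-21 (0.117%) and hsa-miR-148a (2.66%) above it. The arms of other hairpins were paired by their names in the files.

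**Figure D4:**
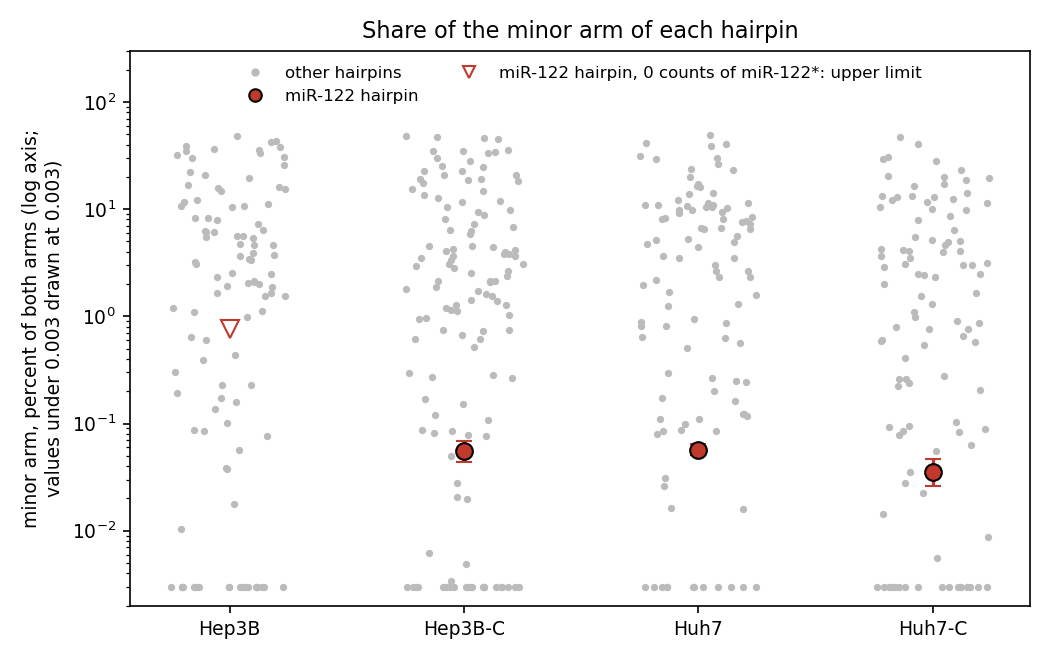
Share of the less abundant arm in the counts of both arms (percent, log axis) for hairpins with at least 100 counts in a library, drawn as grey points at random horizontal positions, with the miR-122 hairpin in red and its 95% Clopper-Pearson interval. The miR-122 share was 0.0553%, 0.0570% and 0.0352% in Hep3B-C, Huh7 and Huh7-C. The open triangle in Hep3B marks 0.756%, the share at 3 counts, where the Clopper-Pearson upper limit was 0.925%. Minor arms at 0 counts are drawn at the bottom, although the depth allows higher shares.

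On the opposite strand, hsa-miR-3591-5p had no count in Hep3B, and its counts elsewhere were 29 (Hep3B-C), 18 (Huh7) and 16 (Huh7-C). Hsa-miR-3591-3p, antisense to the guide, had 1 count in Huh7 and 0 in the other libraries. For 1000000 counts of hsa-miR-122 there were 193 of hsa-miR-3591-5p in Hep3B-C (interval 130 to 278), 36.8 in Huh7 (21.8 to 58.1) and 110 in Huh7-C (63.2 to 179). The antisense arm was thus seen in the same 3 libraries as hsa-miR-122*, but not in a fixed proportion to the guide, with a lower proportion in Huh7 than in either HCSC library. In Hep3B the depth allows up to 7557 per 1000000, so nothing can be said of the proportion there.

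To find the profiles most like that of hsa-miR-122, the 442 miRNAs that reached 10 counts in 2 or more libraries were ordered by the root mean square difference of their centred log2(TPM + 0.1) profile from that of hsa-miR-122. The closest was hsa-miR-629 with a difference of 0.62, followed by hsa-miR-122* (1.37), hsa-miR-4521 (2.14), hsa-miR-9 (2.27) and hsa-miR-29b-1* (2.28). The median over all was 3.86. With shares of miRNA counts in place of TPM the first 3 were hsa-miR-122*, hsa-miR-629 and hsa-miR-4521. Hsa-miR-122* and hsa-miR-4521 had 0 counts in Hep3B, so their distance depends on the added constant, and a likeness over 4 libraries is a description only.

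Hsa-miR-629 had 8 counts in Hep3B (0.477 TPM), 1173 in Hep3B-C (76.0 TPM), 5455 in Huh7 (514 TPM) and 2548 in Huh7-C (238 TPM). Its TPM was 159-fold higher in Hep3B-C than in Hep3B (interval 80.6 to 370) and 2.16-fold lower in Huh7-C than in Huh7 (2.06 to 2.26). Its order of libraries was that of hsa-miR-122. Its gene, MIR629, lies on another chromosome, at chr15:70079372-70079468 on the minus strand of GRCh38 (GENCODE release 29), inside TLE3 and on the same strand, with 0 TLE3 exons overlapping it. The sequence of its 5p arm, which is the more abundant one, is shown to set its seed (capitals) beside that of hsa-miR-122, from which it differs.
hsa-miR-629-5p: uGGGUUUAcguugggagaacu
The other arm, hsa-miR-629*, had 28 counts in Huh7 and at most 2 in the other libraries.

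To set the Hep3B-C level beside other miRNAs that mark the lines, miRNAs with at least 1000 counts in Huh7 and a share of miRNA counts at least 100-fold that in Hep3B were taken. There were 6 of them. The share of hsa-miR-122 in the Hep3B-C library was 32.4% of its share in Huh7, and that of hsa-miR-629 22.7%. The other 4, hsa-miR-196a of the HOX clusters, hsa-miR-452 and hsa-miR-224 of one X-linked cluster, and the p53 target hsa-miR-34c-5p, stood at 0.0325% to 0.113%. Hsa-miR-196a, for example, had 35807 counts in Huh7 and 17 in Hep3B-C. In Huh7-C all 6 were kept at 31.5% or more of their Huh7 share, with hsa-miR-122 at 42.0%. The converse set of 5 miRNAs enriched in Hep3B, led by hsa-miR-146a, hsa-let-7c and hsa-miR-483-5p, stood in Hep3B-C at 15.0% to 107% of their Hep3B share and in Huh7-C at 0.318% or less.

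A list of 10 other miRNAs that are enriched or abundant in liver was read beside hsa-miR-122. It holds both arms of hsa-miR-192 and both arms of hsa-miR-194, so its members are not all independent of each other. In Hep3B, where hsa-miR-122 had 0.0228% of miRNA counts, hsa-miR-192 had 10.3% and hsa-miR-148a 5.48%. Their ranks were 2 to 4 and 4 to 7 over the libraries, so both were abundant also where hsa-miR-122 was low. The other members of the list had lower shares in Hep3B. These were 0.767% for hsa-miR-101, 0.327% for hsa-miR-26a, 0.292% for hsa-miR-194, 0.0872% for hsa-miR-215, 0.0265% for hsa-miR-194* and 0.0241% for hsa-miR-22. Hsa-miR-885-5p (0.0107%) and hsa-miR-192* (0.000287%) were below hsa-miR-122 there. From Hep3B to Hep3B-C, 8 of the 10 were at least 2-fold higher and 0 at least 2-fold lower by TPM. Over all miRNAs, 66.5% were higher and 5.05% lower. The median log2 ratio of the list was 1.31 beside 1.42 over all miRNAs. By total miRNA counts 2 were higher and 1 lower, beside 19.4% and 25.1% of all miRNAs, with a median of -0.45 beside -0.34. The highest ratio in the list was that of hsa-miR-215 (1517 to 15756 counts, log2 ratio 3.50), which shares its seed with hsa-miR-192. From Huh7 to Huh7-C, 1 of 9 with enough counts was higher and 3 were lower, beside 7.42% and 37.4% of all miRNAs. The median was -0.60 beside -0.66. By total miRNA counts 1 was higher and 2 were lower, beside 15.3% and 24.4% of all miRNAs. Hsa-miR-22 had the lowest ratio, with 3128 and 524 counts (log2 ratio -2.59), and hsa-miR-101, which targets the histone methyltransferase EZH2, had a log2 ratio of -1.27. The liver miRNA hsa-miR-885-5p had the reverse preference for the lines, with 186 and 159 counts in the Hep3B pair against 2 in Huh7 and none in Huh7-C. Between the parents, 8 of the 10 were at least 2-fold higher in Huh7 and 2 lower, beside 57.8% and 18.3% of all miRNAs. The median was 2.36 beside 1.59 over all miRNAs. By total miRNA counts 3 were higher and 3 lower, beside 24.8% and 47.5% of all miRNAs (median -0.02 beside -0.79). Between the HCSC libraries, 1 was higher and 2 were lower in Huh7-C, beside 22.7% and 46.8% of all miRNAs (median 0.12 beside -0.82). In both pairs of HCSCs and HCC cells the median of the list thus lay near that of all miRNAs, and the log2 ratio of 8.68 of hsa-miR-122 in the Hep3B pair compares with 3.50 as the highest value in the list.

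**Figure D5:**
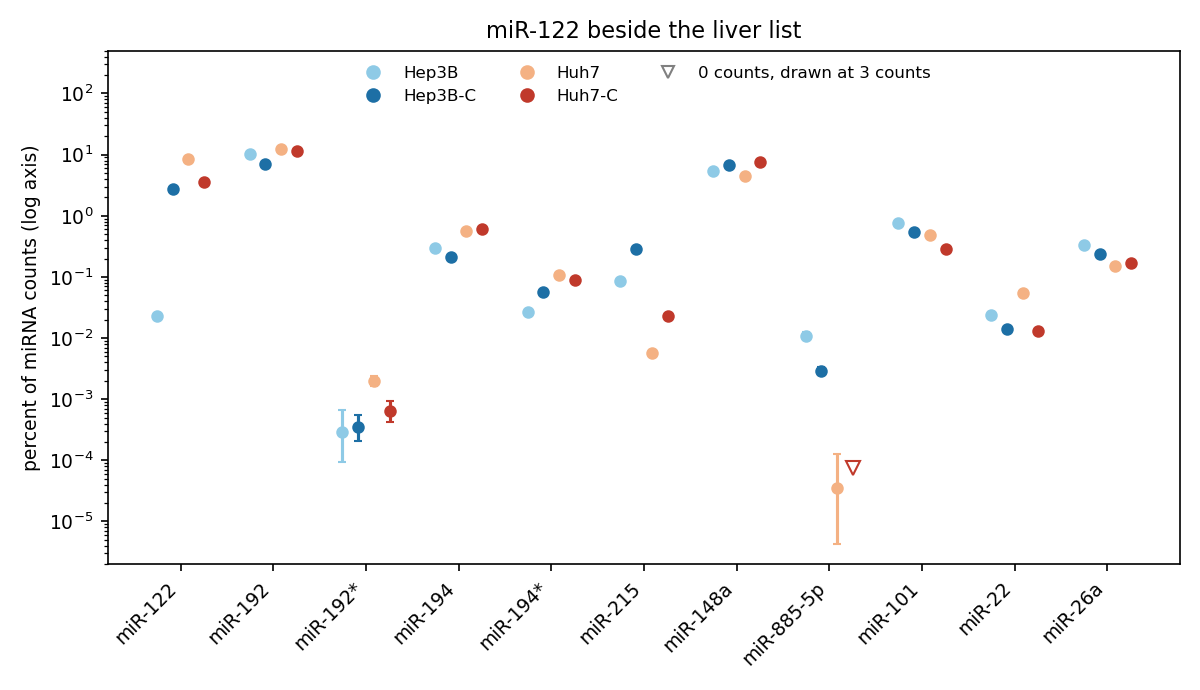
Share of miRNA counts (percent, log axis) of hsa-miR-122 and of 10 other liver miRNAs in the 4 libraries, with 95% Clopper-Pearson intervals as bars and an open triangle where a library had 0 counts. The gap between Hep3B (0.0228%) and the other libraries (2.76% to 8.52%) is seen for hsa-miR-122, while hsa-miR-192 and hsa-miR-148a were high in all 4. The rest of the list was lower in Hep3B than both, with hsa-miR-885-5p (0.0107%) and hsa-miR-192* (0.000287%) below hsa-miR-122.

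Lists of markers of other cell types were summed in each library, and their part in the levels of hsa-miR-122 was not tested. The 7 blood cell miRNAs had 8, 1, 800 and 11 counts in Hep3B, Hep3B-C, Huh7 and Huh7-C, of which the red cell miRNA hsa-miR-451 gave 773 in Huh7, the library with the highest hsa-miR-122, and 1 in Hep3B-C. Of these 7, 2 were at 0 in every library, hsa-miR-150 and hsa-miR-144. Hsa-miR-142-3p had 20 counts in Huh7 and 3 in Huh7-C, and hsa-miR-486-5p 4 and 6. Apart from hsa-miR-451, no member of the list thus had more than 20 counts in a library. The 8 miRNAs of pluripotent cells had at most 16 counts in a library, and 5 of them, hsa-miR-302a to hsa-miR-302d and hsa-miR-367, were at 0 in every library. The 5 mesenchymal miRNAs had 593, 1775, 123 and 32 counts in the same order of libraries, mostly hsa-miR-143 in the Hep3B pair, and the 5 muscle miRNAs 16 to 139, with 1 at 0 throughout. The 2 endothelial miRNAs had 876 to 2209 counts, and the 4 neuronal ones 430, 1370, 10370 and 11679. Hsa-miR-9 gave 154, 844, 9765 and 11349 of these neuronal counts, so most of them in every library but Hep3B, while hsa-miR-124 was at 0 in all 4.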

How the data were processed

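Small RNA from 4 cell lines was sequenced on an Illumina Genome Analyzer II, with 1 library per condition. Inserts of at least 18 nt were kept by the authors, and their filters also dropped contaminants and redundant reads. SOAP served as the aligner, on NCBI Build 36.1. Reads of other small RNA classes were not used for the miRNA counts, whose names follow miRBase release 17. The authors deposited raw read counts of 1733 miRNAs per library, without normalization or positions. How reads mapping to several miRNAs or to either strand were counted is not given in the sources used here.

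Groups were taken from the cell line label. TPM was computed with the total reads stated in the methods, which do not say whether these are raw or filtered reads. Ratios carry exact binomial intervals, shares Clopper-Pearson intervals and counts exact Poisson intervals, all at 95%. No test was run, since hsa-miR-122 was chosen on these contrasts and each condition had 1 library. A count of 0 was set to 3 for ratios, given as bounds that leave out the counting error of the other count. Counts over all miRNAs used 0.5 added counts and a minimum of 10 in either library. Ratio and interval code was tested on simulated data. The miRNAs named were both arms, the antisense arms, the 5 profiles closest to hsa-miR-122, the leading miRNA of each library, line-enriched miRNAs and lists of liver, blood, endothelial, mesenchymal, muscle, neuronal and pluripotent miRNAs. Of the line-enriched miRNAs, more were named than the 3 most abundant that the rule allows, so that all of those enriched in Huh7 are given. Neighbours in rank, hsa-let-7a, hsa-miR-629* and the markers named within the lists were added after values were seen. Members and lists were chosen with earlier results of these data known. Alternatives were other library sizes (total miRNA counts, with or without miR-122, TMM from edgeR 4.0.16 and size factors from DESeq2 1.42.0) and other count minimums. Setting minor arms at 0 to 3 counts was added after seeing the data. Python 3.11.15, scipy 1.17.1 and R 4.3.3 were used.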

Additional observations from a re-analysis of the deposited data

Results flagged for a closer look

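Of 17 miRNAs looked at (both arms of miR-122, the closest profiles, hsa-miR-21 and the liver list), 13 had log2 ratios of TPM of opposite sign in the 2 pairs, each with a counting interval away from 0 or given as a bound. Of 359 miRNAs that reached 10 counts in either library of each pair, 62.1% had opposite signs by TPM and 39.6% also met this condition on the intervals, so opposite signs are common in these libraries. The closest profiles were chosen for their likeness to hsa-miR-122 and are not independent of it. None of these differences between the lines was tested. Values are given for the Hep3B pair first. Hsa-miR-122 had 8.68 and -1.77. Hsa-miR-122* had at least 4.91 and -2.46, from 0, 83, 279 and 51 counts in Hep3B, Hep3B-C, Huh7 and Huh7-C. Hsa-miR-629 had 7.32 and -1.11, the former resting on 8 counts in Hep3B. Hsa-miR-4521 had at least 3.18 and -3.44, and hsa-miR-29b-1* had 2.94 and -1.64.

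In the liver list, hsa-miR-192* had 2.05 and -2.17, hsa-miR-194* 2.85 and -0.80, hsa-miR-101 1.27 and -1.27, and hsa-miR-22 0.99 and -2.59. Smaller opposite values were those of hsa-miR-192 (1.23 and -0.60), hsa-miR-194 (1.32 and -0.40) and hsa-miR-26a (1.31 and -0.32). Hsa-miR-21 had 0.91 and -1.0. With total miRNA counts as the library size, 7 of the 13 kept both signs, and 6 of these met the condition on the intervals, which hsa-miR-192* did not (0.28 in the Hep3B pair, interval -1.19 to 2.06). Over the 359 miRNAs, 19.8% met it on that scale, and 6.41% with the higher level in Hep3B-C and the lower in Huh7-C. The 6 included both arms of miR-122 (6.92 and -1.25 for hsa-miR-122) and hsa-miR-629 (5.55 and -0.59). Hsa-miR-21, hsa-miR-192, hsa-miR-101 and hsa-miR-22 were then lower in both HCSC libraries.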

How the results depend on the processing

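With 1 library per condition, no library could be left out, and counting intervals understate the true error. A fit of HCSCs against HCC cells with the line as a block would have 2 pairs and was not run, because hsa-miR-122 was chosen on these contrasts. The library size moved the size of each ratio of hsa-miR-122 but not its direction. With single miRNAs as the base, the direction of Huh7-C over Hep3B-C depended on the miRNA used. For Hep3B-C over Hep3B the log2 ratio was 6.92 with total miRNA counts, 6.96 with those counts without miR-122, 7.27 with TMM and 7.50 with DESeq2 size factors. For Huh7-C over Huh7 it was -1.25, -1.33, -1.45 and -1.20 in the same order. For Huh7 over Hep3B it was 8.54, 8.67, 9.47 and 9.48, and for Huh7-C over Hep3B-C 0.38, 0.39, 0.75 and 0.78. With total miRNA counts, hsa-miR-122* was at least 3.15 higher in Hep3B-C and at least 4.82 higher in Huh7 than in Hep3B on the log2 scale, and its log2 ratio was -1.95 for Huh7-C over Huh7. For Huh7-C over Hep3B-C, where the interval of hsa-miR-122* spanned 0, it was -0.28. Ranks of hsa-miR-122 were the same with identical rows counted once. The share of hairpins with a lower minor-arm share than miR-122 was 23.4%, 15.2% and 21.2% in Hep3B-C, Huh7 and Huh7-C with 0s ranked as 0, and 9.38%, 4.76% and 5.77% with 0s set to 3 counts, an alternative chosen after seeing the data. With a minimum of 1000 counts it was 25.0%, 9.52% and 16.4% with 0s ranked as 0 and 17.6%, 7.94% and 10.9% with 0s set to 3 counts. Hep3B gave no value. With total miRNA counts, 3 of the 5 closest profiles were the same.

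The numbers of miRNAs past 2-fold moved with the count minimum in all 4 comparisons and with the library size in 3. With total miRNA counts, 92 were higher and 119 lower in Hep3B-C than in Hep3B (316 and 24 by TPM), 66 and 105 in Huh7-C than in Huh7 (32 and 161), and 118 and 226 in Huh7 than in Hep3B (275 and 87). For Huh7-C against Hep3B-C they were 110 and 246, close to 114 and 235 by TPM. With a minimum of 100 counts, which leaves fewer miRNAs, the numbers by TPM were 161 and 10, 12 and 68, and 133 and 48 in these comparisons, and 51 and 129 in Huh7-C against Hep3B-C (114 and 235 with the minimum of 10).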
